A study of Mus musculus with 16 samples.

Results

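Connexins are the proteins of vertebrate gap junctions, and the 9 genes described here, Gja1, Gjb6, Gjb2, Gjb1, Gjc1, Gjc3, Gja4, Gja5 and Gjd2, were taken by name from the 55487 gene symbols of a single-cell expression matrix of mouse spinal cord. They were followed across the 17 cell clusters of the authors and across the days after injury. A connexin spans the membrane and joins other connexins into a hemichannel, which docks with a hemichannel of a neighboring cell to form a channel that passes ions and small molecules. Astrocytes are coupled to each other and to oligodendrocytes in this way, pericytes, smooth muscle and endothelial cells are coupled along vessels, and some neurons are joined by electrical synapses. Which connexin a cell type uses sets the partners it can couple to, and glial coupling is known to matter for potassium and metabolite handling around axons.

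Spinal cord cells of 16 mice had been profiled by 10x Genomics 3′ single-cell RNA sequencing, 1 library per mouse. The WT mice were Ryk+/+,GFAPcreERT2 and the Ryk cKO mice were Rykfl/fl,GFAPcreERT2, so that every mouse carried the tamoxifen-inducible Cre driven by the GFAP promoter and all had been given tamoxifen. Mice of each genotype, aged 8 to 10 weeks, were uninjured (sham in the labels) or were taken 1 d, 7 d or 14 d after a dorsal column lesion at cervical level C5, with 2 mice in each of the 8 conditions. Recombination was limited to cells in which the GFAP promoter had been active, and cells had been released from tissue by pronase in the presence of actinomycin D, a transcription blocker, before dead cells were removed. The matrix held 18203 cells. Levels are given as CPM, the unique molecular identifiers (UMIs) of a gene scaled to all UMIs of the same cells, with the mouse as the replicate. Tests were made with edgeR on UMIs summed per mouse and cell class, and a gene was called at a Benjamini-Hochberg adjusted p under 0.05 over all genes tested.

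Several libraries stood apart. WT 1 d replicate 2 held 1 cell with 266 UMIs and entered no level per mouse and no test below, which left 15 mice with 536263 to 9008729 UMIs each. Counts over all cells, of shared barcodes and of cell names include it. In 4 mice, replicate 1 of WT and of cKO at 1 d and at 7 d, the median cell had 414 to 548 UMIs, against 1040.5 to 3637 in the other 11, and these 4 libraries shared 28 to 115 cell barcodes with each other in each of their 6 pairs. No other pair shared more than 4, and 358 of the 432 cells with a shared barcode were in these 4 mice. Cell names pointed to a different condition from the sample title for 6 mice, and the title was followed here.

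Ryk, the deleted gene, is given first. In astrocytes (Clusters 2, 5 and 7 together), Ryk was at 123 and 54.0 CPM in the uninjured WT mice and at 66.1 and 85.1 CPM in the uninjured cKO mice. The WT mouse at 1 d had 101 CPM and the cKO mice 23.0 and 69.0 CPM. At 7 d it was at 157 and 116 CPM in WT and 90.1 and 119 CPM in cKO, and at 14 d at 105 and 108 CPM in WT and 121 and 123 CPM in cKO. The genotypes overlapped, and the log2 fold change of cKO against WT after injury was −0.20 (SE 0.37, edgeR adjusted p = 1.00). The exons that Cre removes are not given in the sources used here, so 3′ tags of Ryk do not check the genotype labels.

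In the mouse genome (GRCm38), Gja1 (ENSMUSG00000050953.10) lies at chr10:56377330-56402513 on the plus strand. Gjb6 (ENSMUSG00000040055.9), at chr14:57123303-57133611, and Gjb2 (ENSMUSG00000046352.7), at chr14:57098600-57104702, are both on the minus strand, 18600 bases apart, with Gm4491 between them. Gjb1 (ENSMUSG00000047797.14) is X-linked, at chrX:101376378-101385629, plus strand. Gjc1 (ENSMUSG00000034520.14) is at chr11:102799579-102819700 and Gjc3 (ENSMUSG00000056966.7) at chr5:137953461-137963098, both on the minus strand. Gja4 (ENSMUSG00000050234.7) is at chr4:127311421-127314039, minus strand, and Gjd2 (ENSMUSG00000068615.4) at chr2:114009601-114013619, minus strand. Gja5 (ENSMUSG00000057123.14) is at chr3:96904693-97077416, plus strand. The family shares a compact coding region, which lay in 1 exon in 6 of the 9 genes and encoded 226 residues in Gjb2 to 396 in Gjc1. Gja5 is the exception in length, with 172724 bases that overlap Gpr89 on the other strand, and Gjd2 overlaps A530058N18Rik on the other strand.

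The connexins divided by cell lineage. Gja1 and Gjb6 were highest in astrocyte Clusters 7 and 5, Gjb1 in oligodendrocyte Cluster 8, and Gjc3 in oligodendrocyte precursors (OPC, Cluster 11), oligodendrocyte Cluster 4 and Schwann cells (Cluster 15). Gjc1 and Gja4 were highest in pericytes (Cluster 9), and Gjb2 in fibroblasts (Cluster 14). Cluster 9 is called pericytes here after the authors' label, and the smooth muscle genes Myh11, Acta2, Myl9 and Tagln were among its 10 leading genes. Gja5 and Gjd2 had 184 and 65 UMIs in all 18203 cells and stayed under 10 CPM in every cluster. The clusters had been made from these same genes and cells, so the differences between clusters are described and not tested. For levels, a mouse counted in a cluster where it had at least 10 cells. For the shares of a pair given below, every mouse with a UMI of the pair in the cluster counted.

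**Figure D1:**
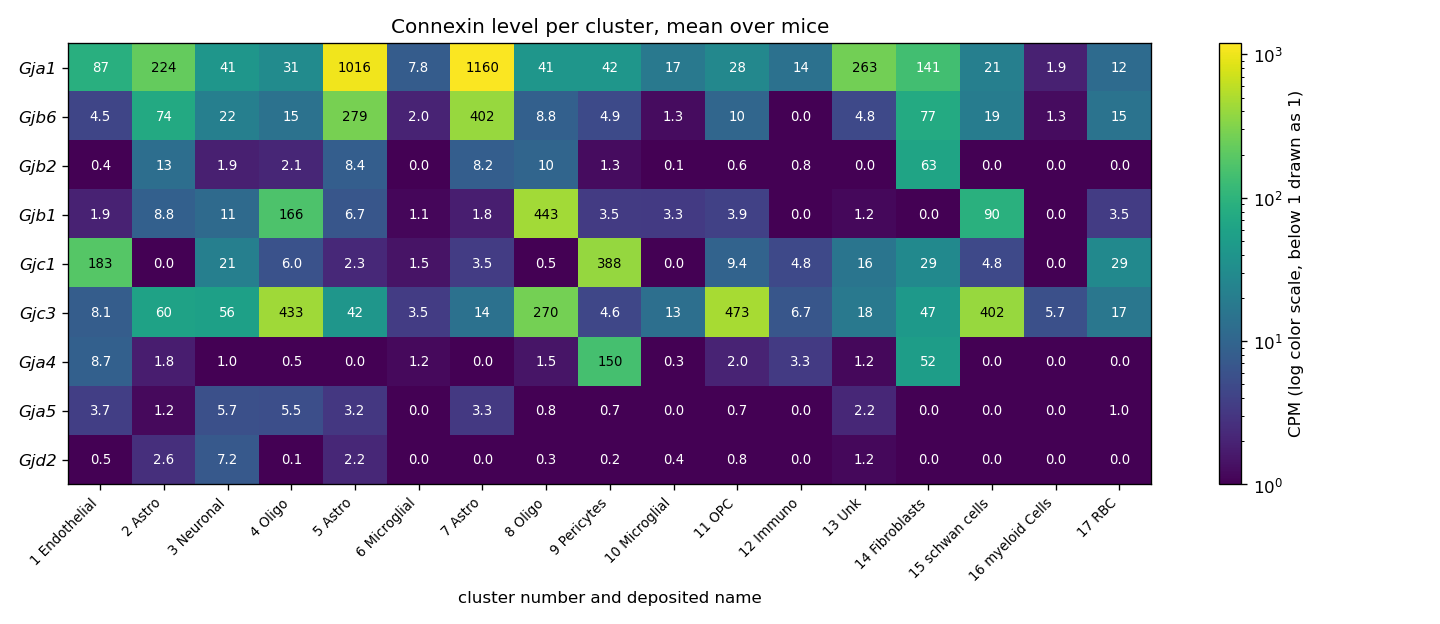
Mean level of each connexin in each of the 17 clusters, in CPM on a log color scale, averaged over the mice with at least 10 cells in the cluster. Lighter colors are higher levels. Gja1 is lightest in Clusters 7 and 5 (1160 and 1016 CPM), Gjb1 in Cluster 8 (443 CPM), Gjc1 in Cluster 9 (388 CPM) and Gjc3 in Clusters 11, 4 and 15 (473, 433 and 402 CPM).

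Gja1 encodes connexin 43, the main astrocyte connexin. It was at 1160 ± 314 CPM in Cluster 7 (SD, n = 15 mice) and 1016 ± 387 CPM in Cluster 5 (n = 14), and these did not differ beyond their spread, with Cluster 7 higher in 8 of 14 mice. The next step down was wide: Cluster 13 was at 263 ± 92.4 CPM (n = 10), and its mean plus SD stayed under the mean minus SD of Cluster 5. Cluster 13 is named Unk in the deposited annotation, and the ependymal markers Tmem212 and Ccdc153 were among its 10 leading genes. Cluster 2 (n = 11), which the authors also labelled astrocytes, followed at 224 ± 121 CPM, below Cluster 5 in 11 of 11 mice. Cluster 2 was led by Nefh, Nefl and Kif5a and had a higher summed level of the oligodendrocyte marker list (21044 CPM) than of the astrocyte list (7696 CPM). Cluster 5 also had much of the oligodendrocyte list, at 13374.5 CPM beside 14261 CPM of the astrocyte list. Cluster 7 had 1871 and 10432 CPM of these lists. Fibroblasts were at 141 ± 90.9 CPM (n = 9) and endothelial cells at 87.2 ± 26.0 CPM (n = 15). Below these, no step of Gja1 was larger than its spread: pericytes were at 41.6 CPM, Cluster 8 at 41.4 CPM, neurons at 41.1 CPM, Cluster 4 at 30.8 CPM, OPC at 27.7 CPM and Schwann cells at 21.1 CPM. In OPC, Gja1 was at 0 CPM in 8 of 14 mice, and 37 of the 67 UMIs came from cKO 7 d replicate 2, at 192 CPM. Gja1 was also low in immune and red blood cells, with 17.4 CPM in microglia of Cluster 10, 14.1 CPM in Cluster 12, 7.81 CPM in microglia of Cluster 6, 1.90 CPM in Cluster 16 and 0 to 29.8 CPM in the 4 mice of Cluster 17, of red blood cells.

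Gjb6 encodes connexin 30, the other connexin of astrocyte junctions. It was at 402 ± 87.7 CPM in Cluster 7 (n = 15) and 279 ± 148 CPM in Cluster 5 (n = 14), within their spread, although Cluster 7 was higher in 12 of 14 mice. Fibroblasts had 76.6 ± 62.7 CPM and Cluster 2 had 73.8 ± 46.5 CPM, followed by neurons at 21.5 ± 11.8 CPM. The order from fibroblasts down held no step beyond the spread, and Gjb6 reached only 4.78 ± 7.74 CPM in Cluster 13 and 4.45 ± 5.30 CPM in endothelial cells. Gjb2, which encodes connexin 26 and is known from the meninges as well as the inner ear, was highest in fibroblasts at 63.2 ± 63.1 CPM (n = 9). Fibroblasts of all mice held 147 of its 287 UMIs, although no step in its order exceeded the spread. The fibroblast values ran from 0 CPM in WT 1 d replicate 1 to 184 CPM in cKO 14 d replicate 1, and 65 of the UMIs came from cKO 7 d replicate 2. WT uninjured replicate 2, the only uninjured mouse counted there, was also at 0 CPM. Gjb2 reached 8.38 ± 10.7 CPM in astrocyte Cluster 5, 8.23 ± 8.50 CPM in astrocyte Cluster 7 and 10.2 ± 12.4 CPM in oligodendrocyte Cluster 8, each with an SD above its mean. The mean of 12.8 CPM in Cluster 2 rested on 3 UMIs.

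The balance of the 2 astrocyte connexins, taken as the share of Gjb6 among the UMIs of Gja1 and Gjb6, differed between cell types. In Clusters 5 and 7 together Gjb6 made up 23.2% of 9661 UMIs (95% exact binomial interval 22.3 to 24.0%). Its share in neurons was 31.3% (27.6 to 35.2%), in Cluster 4 it was 32.2% (25.8 to 39.1%), in Cluster 8 it was 20.5% (14.3 to 28.0%) and in OPC it was 24.7% (16.2 to 35.0%). The share was below that of the same mouse's astrocytes in 2 of 14 mice for neurons, 5 of 14 for Cluster 4, 10 of 13 for Cluster 8 and 3 of 9 for OPC. Endothelial cells differed, with 50 UMIs of Gjb6 among 1045, a share of 4.78% (3.57 to 6.26%), and the share was below that of the same mouse's astrocytes in 15 of 15 mice. Cluster 13 had 6 among 336, or 1.79% (0.658 to 3.85%), again lower in 15 of 15 mice, some of them with fewer than 10 cells there. Gja1 in endothelial cells and in the ependymal-like Cluster 13 was thus not accompanied by Gjb6 in the astrocyte ratio. Pericytes lay between at 12.6% (7.75 to 19.0%), with the share lower in 11 of 13 mice, and fibroblasts had a pooled share of 34.7% (29.8 to 39.9%), with the share below that of the same mouse's astrocytes in 6 of 13 mice. The fibroblast count also holds mice with fewer than 10 cells. These intervals cover counting error only.

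**Figure D2:**
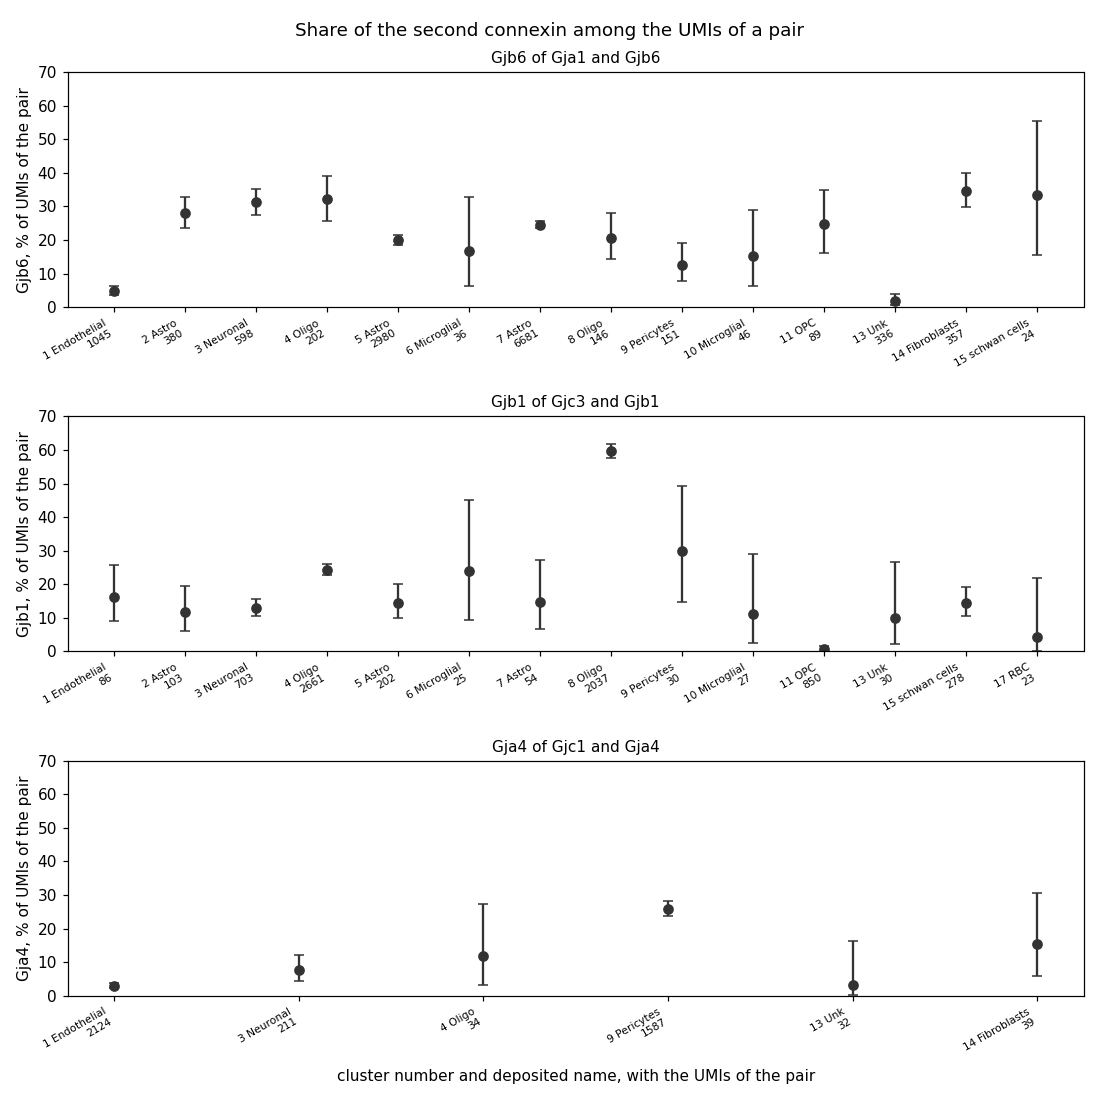
Share of the second connexin among the UMIs of a pair, in percent, for each cluster with at least 20 UMIs of the pair, pooled over mice, with 95% exact binomial intervals. Gjb6 is at 20.1% beside Gja1 in Cluster 5 and 24.5% in Cluster 7 but at 4.78% in endothelial cells. Gjb1 is at 59.7% beside Gjc3 in Cluster 8, 24.4% in Cluster 4 and 0.706% in OPC, and Gja4 is at 25.9% beside Gjc1 in pericytes and 3.01% in endothelial cells.

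Within astrocytes, neither Gja1 nor Gjb6 passed the test at any time after injury. Gja1 was at 1182 and 696 CPM in the uninjured WT mice and at 926 and 622 CPM in the uninjured cKO mice. At 7 d it was at 928 and 1458 CPM in WT and 1291 and 1014 CPM in cKO, and at 14 d at 809 and 963 CPM in WT and 1039 and 996 CPM in cKO. All 4 mice at 7 d were above 3 of the 4 uninjured mice, and the groups overlapped because of uninjured WT replicate 1. In Cluster 7 alone the direction at 7 d was the other (log2 fold change −0.25), with 1115 and 1702 CPM in WT and 1004 and 1298 CPM in cKO before injury and 770 and 1868 CPM in WT and 953 and 1018 CPM in cKO at 7 d. Cluster 2, which was low in Gja1, held more of the astrocyte cells in the uninjured mice of replicate 2 than in any other mouse. At 1 d the WT mouse had 1042 CPM and the cKO mice 805 and 629 CPM, within the uninjured range. The log2 fold changes of Gja1 against uninjured were −0.48 (SE 0.44) at 1 d, 0.12 (SE 0.38) at 7 d and −0.03 (SE 0.38) at 14 d, with edgeR adjusted p of 0.832 or higher. The CPM at 1 d showed no fall of this size, and the median log2 fold change over all genes at 1 d was −0.34. In injured mice Gja1 had a median of 963 CPM (809 to 1458, 5 WT mice) and 1005 CPM (629 to 1291, 6 cKO mice), a log2 fold change of −0.13 (SE 0.34, edgeR adjusted p = 1.00). Without the 4 mice of low depth, the value at 7 d was 0.29 (SE 0.51) and none passed.

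Gjb6 in astrocytes was split within the uninjured mice, with 625 and 408 CPM in replicate 1 of WT and cKO and 158 and 136 CPM in replicate 2. Cluster 2 held 8.09 and 15.6% of the astrocyte cells of the replicate 1 mice and 46.3 and 45.9% of those of the replicate 2 mice. Within Cluster 7 alone, the same mice had 645 and 417 CPM in replicate 1 and 369 and 310 CPM in replicate 2. In Cluster 5 alone, uninjured WT replicate 1 had 617 CPM against 122 and 90.5 CPM in replicate 2 of WT and cKO, so that the split was present in each of these clusters, wider in Cluster 5 than in Cluster 7. The part that cluster mix or batch had in it was not tested. After injury the range was narrower: 420 CPM in WT and 345 and 234 CPM in cKO at 1 d, 456 and 339 CPM in WT and 330 and 332 CPM in cKO at 7 d, and 238 and 260 CPM in WT and 294 and 287 CPM in cKO at 14 d. All 11 injured mice fell between the replicates of the uninjured mice of WT. The log2 fold changes were −0.27 (SE 0.44) at 1 d, −0.06 (SE 0.38) at 7 d and −0.32 (SE 0.37) at 14 d, with edgeR adjusted p of 0.900 or higher, and −0.17 (SE 0.34) for cKO against WT after injury (edgeR adjusted p = 1.00). The CPM of Gjb6 at 1 d and 7 d showed no such fall against uninjured. Without 1 mouse at a time, the fitted value ran from −0.52 to 0.12 at 1 d and from −0.30 to 0.34 at 7 d. Leaving out the 4 mice of low depth gave 0.06 (SE 0.51) for cKO against WT over 7 d and 14 d, and no call.

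Of the 9 connexins, Gja1, Gjb6, Gjb2 and Gjc3 passed the filter on low counts in astrocytes, and edgeR called 0 of these 4 in any of the 4 comparisons, with 0 at an unadjusted p under 0.05 and 0 called by DESeq2. Among all 11769 genes tested there, 0.0765% were called at 1 d and 0% at 7 d, at 14 d and for cKO against WT. The median log2 fold change of the 4 connexins was −1.14 at 1 d, against −0.34 over all genes, −0.01 against −0.03 at 7 d and −0.17 against 0.01 at 14 d. The low median at 1 d came from Gjb2 and Gjc3, with −2.20 (SE 2.89) and −1.79 (SE 0.90). Their counts were small, with 0, 0 and 9 UMIs of Gjb2 and 1, 0 and 23 of Gjc3 in the 3 mice at 1 d.

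Oligodendrocytes combined Gjb1 and Gjc3 in 2 different proportions. Gjb1, which encodes connexin 32, a channel of myelin and the gene mutated in X-linked Charcot-Marie-Tooth neuropathy, was at 443 ± 129 CPM in Cluster 8 (n = 14) and 166 ± 86.1 CPM in Cluster 4 (n = 15). This step exceeded the spread, and Cluster 8 was higher in 14 of 14 mice. Schwann cells, the myelinating cells of peripheral nerve, had 90.3 ± 69.3 CPM (n = 5), within the spread of Cluster 4. All remaining clusters were at 11.5 CPM or less, neurons being the highest of them. Gjc3 encodes connexin 29, a myelin connexin. It was at 473 ± 148 CPM in OPC (n = 14), 433 ± 135 CPM in Cluster 4 (n = 15), 402 ± 103 CPM in Schwann cells (n = 5) and 270 ± 106 CPM in Cluster 8 (n = 14), neighbors that did not differ beyond their spread. Within mice the order of the oligodendrocyte clusters was the reverse of that of Gjb1, with Gjc3 higher in Cluster 4 than in Cluster 8 in 13 of 14 mice. The step from Cluster 8 to Cluster 2 (59.5 ± 45.3 CPM) exceeded the spread, and neurons were at 55.8 ± 38.0 CPM and Cluster 5 at 41.9 ± 38.1 CPM. The mean of 46.6 ± 66.8 CPM in fibroblasts rested on 184 and 136 CPM in WT and cKO 1 d replicate 1, of 1 UMI each. OPC were above Cluster 4 in 8 of 14 mice and above Cluster 8 in 12 of 14.

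Among the UMIs of Gjc3 and Gjb1, Gjb1 made up 59.7% (57.6 to 61.9%) in Cluster 8 and 24.4% (22.8 to 26.1%) in Cluster 4. OPC stood apart, with 6 UMIs of Gjb1 among 850, or 0.706% (0.259 to 1.53%), below the share of the same mouse's Clusters 4 and 8 in 15 of 15 mice. Precursors therefore held Gjc3 almost without Gjb1 at this depth. Schwann cells had 14.4% (10.5 to 19.1%), lower than oligodendrocytes in 9 of 10 mice, and neurons had 12.9% (10.6 to 15.7%), lower in 11 of 13. The counts for OPC and Schwann cells include mice with fewer than 10 cells of the cluster.

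After injury, Gjb1 in oligodendrocytes (Clusters 4 and 8 together) was at or above 193 CPM in all 11 mice, while 3 of the 4 uninjured mice were lower. The uninjured mice had 283 and 118 CPM in WT and 105 and 152 CPM in cKO. Injured mice had 277 CPM in WT and 384 and 229 CPM in cKO at 1 d, 396 and 219 CPM in WT and 435 and 287 CPM in cKO at 7 d, and 386 and 193 CPM in WT and 272 and 236 CPM in cKO at 14 d. WT uninjured replicate 1 lay within the injured range, and the test was not passed. The log2 fold changes were 0.58 (SE 0.48) at 1 d, 0.77 (SE 0.43) at 7 d and 0.48 (SE 0.42) at 14 d, with edgeR adjusted p of 0.872 or higher. The value at 7 d was 0.36 (SE 0.56) without the 4 mice of low depth, and that at 14 d turned to −0.13 without the cells of highest UMIs. Over all alternatives, the value at 1 d ran from 0.11 to 0.91. Cluster 8, the cluster of higher Gjb1, made up 25.5 and 48.8% of the oligodendrocytes of the uninjured WT mice, 19.4 and 48.2% of those of the uninjured cKO mice, and 19.7 to 42.7% after injury. Within Cluster 8 itself, the uninjured mice had 474 CPM in WT replicate 1 and 200 and 194 CPM in replicate 2 of WT and cKO, on 128, 14 and 9 UMIs.

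Gjc3 in oligodendrocytes differed between the replicates of the uninjured mice, with 542 and 384 CPM in replicate 1 of WT and cKO and 175 and 184 CPM in replicate 2. At 1 d it was at 425 CPM in WT and 424 and 211 CPM in cKO, at 7 d at 323 and 506 CPM in WT and 384 and 403 CPM in cKO, and at 14 d at 294 and 486 CPM in WT and 369 and 430 CPM in cKO. All injured mice lay inside the uninjured range. Its log2 fold changes were 0.04 (SE 0.42) at 1 d, 0.18 (SE 0.37) at 7 d and 0.12 (SE 0.37) at 14 d, with edgeR adjusted p of 0.985 or higher. Without the 4 mice of low depth, the value at 1 d was −0.34 (SE 0.81), from the 1 cKO mouse left against uninjured cKO mice. For cKO against WT after injury, the log2 fold change was 0.03 (SE 0.36) for Gjb1, with medians of 279 CPM in 6 cKO and 277 CPM in 5 WT mice. For Gjc3 it was −0.19 (SE 0.32), with medians of 394 and 425 CPM, and both had an edgeR adjusted p of 1.00. Of the 4 connexins tested in oligodendrocytes, Gja1, Gjb6, Gjb1 and Gjc3, edgeR and DESeq2 each called 0 in the 4 comparisons, and 1 test had an unadjusted p under 0.05, Gja1 at 14 d. Of all 8624 genes, 0% were called in each comparison.

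**Figure D3:**
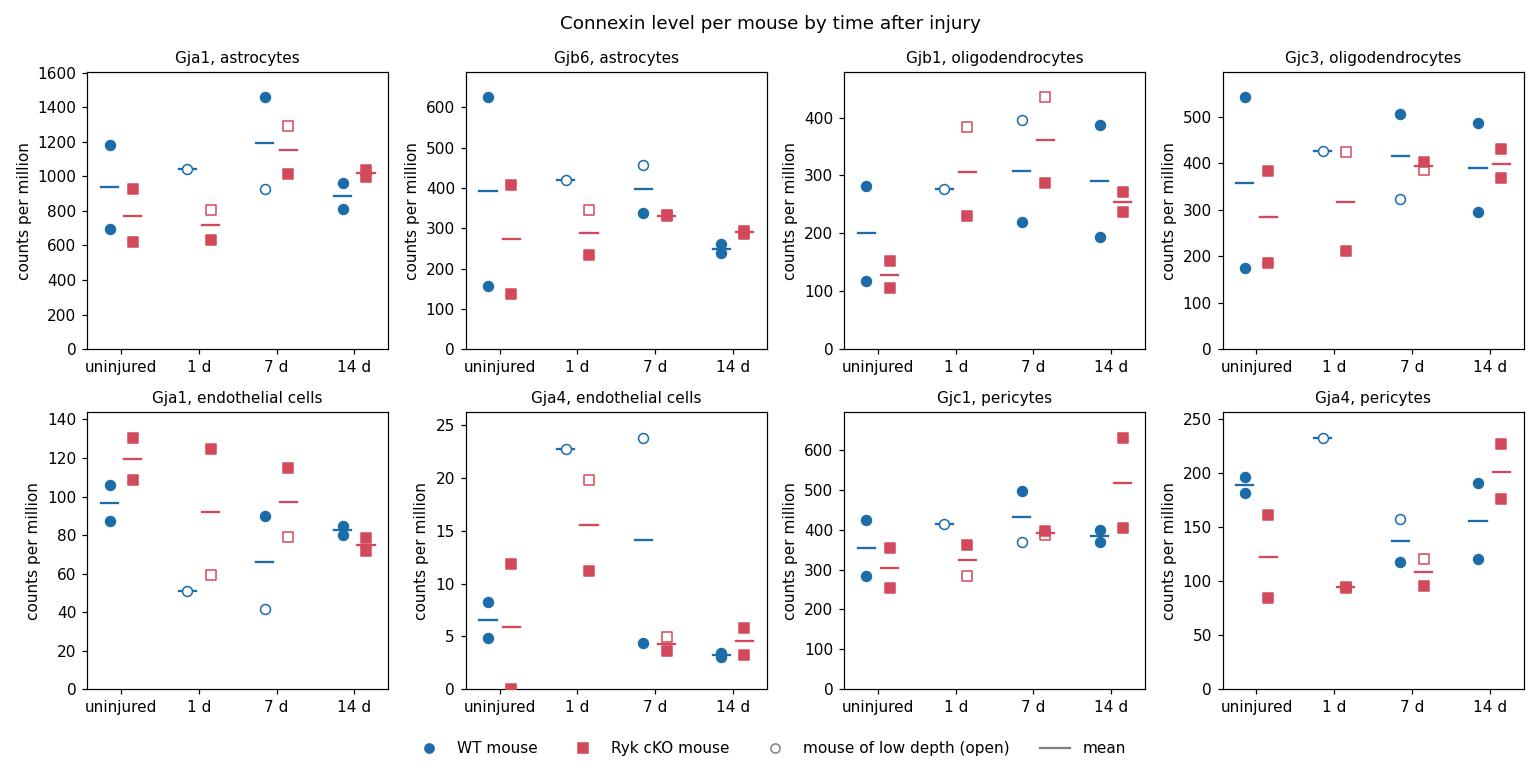
Level of a connexin in each mouse, in CPM, for the pairs of a connexin and a cell class named for testing, by days after injury. Open symbols mark the 4 mice of low depth, and bars are group means. Gjb1 in oligodendrocytes runs from 193 to 435 CPM after injury and from 105 to 283 CPM in uninjured mice, and the groups overlap.

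Along vessels, Gjc1, which encodes connexin 45, a connexin of smooth muscle and pericytes, was at 388 ± 90.8 CPM in pericytes (n = 15), 183 ± 62.5 CPM in endothelial cells (n = 15) and 29.1 ± 58.7 CPM in fibroblasts (n = 9), where 1 UMI in WT 1 d replicate 1 made 184 CPM and no other mouse was above 26.3 CPM. Each of these steps exceeded the spread, and pericytes were above endothelial cells in 14 of 15 mice. The other clusters had 28.7 CPM or less. Gja4, connexin 37, which is known from arterial endothelium and mural cells, was at 150 ± 49.8 CPM in pericytes (n = 15). Fibroblasts had 51.8 ± 102 CPM, on 1 or 2 UMIs in each of 4 mice and 0 in the other 5, and endothelial cells had 8.74 ± 7.61 CPM on 64 UMIs, below pericytes in 15 of 15 mice. Of all 515 Gja4 UMIs, 79.8% were in the pericyte cluster. The same contrast held for the pair: Gja4 made up 25.9% (23.8 to 28.1%) of the 1587 UMIs of Gjc1 and Gja4 in pericytes and 3.01% (2.33 to 3.83%) of 2124 in endothelial cells, lower in 15 of 15 mice. The endothelial Gjc1 therefore did not come with Gja4 in the pericyte ratio.

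Gja5, connexin 40 of large arteries and the cardiac conduction system, was at 3.69 ± 4.53 CPM in endothelial cells on 22 UMIs. It was at 5.68 ± 5.46 CPM in neurons on 83 UMIs and 5.54 ± 5.37 CPM in Cluster 4, so that endothelial cells did not stand out at this depth. A Gja4 UMI was found in 55 of 4201 endothelial cells and a Gja5 UMI in 16, with at most 6 and 3 such cells in a mouse, too few to compare cells within mice. Pooled over mice, a comparison chosen after seeing these counts, the arterial markers Bmx, Gkn3, Sema3g, Efnb2 and Vegfc summed to 1182 CPM in endothelial cells with a Gja4 UMI and 254 CPM in those without. For Gja5 the arterial sums were 2730 and 259 CPM. Cells with a UMI were deeper, with medians of 4646 and 7025 UMIs for Gja4 and Gja5 against 875.5 and 887 UMIs in cells without, and no test was made. The capillary list (Mfsd2a, Slc16a1 and Tfrc) was at 837 CPM with and 1019 CPM without a Gja4 UMI, and at 306 and 1020 CPM for Gja5. The venous list (Nr2f2, Slc38a5 and Vcam1) was at 108 and 329 CPM for Gja4 but at 555 and 322 CPM for Gja5. Markers of pericytes and smooth muscle were at 1684 CPM with and 959 CPM without a Gja4 UMI, and at 396 and 983 CPM for Gja5, and their part in the Gja4 values was not tested.

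In pericytes, Gjc1 after injury was at 368 to 631 CPM in the 8 mice at 7 d and 14 d and at 425 and 284 CPM in WT and 354 and 253 CPM in cKO before injury. At 1 d the values were 414 CPM in WT and 284 and 361 CPM in cKO. The 4 mice at 7 d (368 and 496 CPM in WT, 385 and 396 CPM in cKO) and the 4 at 14 d (369 and 399 CPM in WT, 631 and 405 CPM in cKO) were each above 3 of the 4 uninjured mice. The log2 fold changes were 0.08 (SE 0.40) at 1 d, 0.26 (SE 0.34) at 7 d and 0.45 (SE 0.33) at 14 d, with edgeR adjusted p of 0.946 or higher. Without the 4 mice of low depth, they were 0.50 (SE 0.62), from the 1 cKO mouse left at 1 d against uninjured cKO mice, 0.43 (SE 0.42) and 0.49 (SE 0.35). Grouping mice by cell name instead of title turned the value at 7 d to −0.10. Gja4 in pericytes was at 197 and 182 CPM in WT and 161 and 84.2 CPM in cKO before injury, and at 1 d at 233 CPM in WT and 94.7 and 93.7 CPM in cKO. It was at 158 and 118 CPM in WT and 120 and 96.0 CPM in cKO at 7 d, and at 191 and 121 CPM in WT and 227 and 176 CPM in cKO at 14 d, and all times overlapped the uninjured mice. Its log2 fold changes were −0.08 (SE 0.45) at 1 d, −0.43 (SE 0.38) at 7 d and 0.27 (SE 0.35) at 14 d, with edgeR adjusted p of 0.973 or higher. For cKO against WT after injury, Gjc1 was at 0.02 (SE 0.30) and Gja4 at −0.37 (SE 0.32), both with an edgeR adjusted p of 1.00. Over all alternatives, Gja4 ran from 0.00585 to 0.43 at 14 d and from −0.63 to −0.00318 for cKO against WT. Of Gja1, Gjc1 and Gja4, the 3 connexins tested in pericytes, edgeR and DESeq2 called 0 in the 4 comparisons and 0 had an unadjusted p under 0.05. Over all 6876 genes 0% were called.

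In endothelial cells, Gja1 was lower on average at each time after injury, without passing the test. It was at 87.5 and 106 CPM in the uninjured WT mice and at 131 and 108 CPM in the uninjured cKO mice. At 14 d it was at 80.2 and 84.8 CPM in WT and 71.9 and 78.3 CPM in cKO. The 4 mice at 14 d were all below the 4 uninjured mice, the lowest of which was at 87.5 CPM. At 7 d WT had 41.7 and 89.9 CPM and cKO 79.2 and 115 CPM, and at 1 d WT had 51.2 CPM and cKO 59.5 and 125 CPM, so that both times overlapped the uninjured mice. The log2 fold changes were −0.78 (SE 0.38) at 1 d, −0.57 (SE 0.30) at 7 d and −0.68 (SE 0.29) at 14 d, with edgeR adjusted p of 0.922, 0.566 and 0.654. With the animal number series as a block, described below, the value at 14 d was called, at −0.99 (SE 0.24, edgeR adjusted p = 0.0316). Without the 4 mice of low depth, the value at 1 d, then from the 1 cKO mouse left against uninjured cKO mice, was 0.06 (SE 0.40), that at 7 d was −0.32 (SE 0.28) and that at 14 d was −0.67 (SE 0.23). The astrocyte marker list also differed in these endothelial cells: summed, it was at 1671 and 1288 CPM in the replicate 2 uninjured mice, 101 and 169 CPM in the replicate 1 uninjured mice and 295 to 418 CPM at 14 d. Its part in the Gja1 values was not tested. For cKO against WT after injury, Gja1 was at 0.48 (SE 0.29, edgeR adjusted p = 1.00), while the median was lower in cKO (78.7 CPM) than in WT (80.2 CPM). Without the 4 mice of low depth it was at 0.10 (SE 0.27), then over 7 d and 14 d.

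Gja4 in endothelial cells rested on 0 to 7 UMIs per mouse, and no mouse was above 23.8 CPM. The 1 d mice had 22.7 CPM in WT and 19.8 and 11.2 CPM in cKO, on 4, 4 and 7 UMIs, and the uninjured mice had 4.86 and 8.30 CPM in WT and 0 and 11.9 CPM in cKO. At 7 d WT had 23.8 and 4.39 CPM and cKO 4.95 and 3.61 CPM, and at 14 d WT had 3.41 and 3.07 CPM and cKO 5.83 and 3.29 CPM. All times overlapped the uninjured mice. Its log2 fold changes were 1.04 (SE 0.83) at 1 d, −0.51 (SE 0.78) at 7 d, −1.21 (SE 0.74) at 14 d and −0.46 (SE 0.67) for cKO against WT, with edgeR adjusted p of 0.698 or higher. The log2 fold change at 1 d was 4.04 without cKO uninjured replicate 2, and 0.25 without the 4 mice of low depth, then from 1 cKO mouse against uninjured cKO mice. Without 1 mouse at a time, the value ran from −1.09 to 2.48 at 7 d and from −1.53 to 1.78 at 14 d. The mean CPM at 7 d was above the uninjured mean, with 23.8 CPM in 1 mouse. No change of Gja4 was detectable at this depth. Of the 4 connexins tested in endothelial cells, Gja1, Gjc1, Gjc3 and Gja4, edgeR and DESeq2 called 0 in the 4 comparisons, and 1 test had an unadjusted p under 0.05, Gja1 at 14 d. The share of all 10985 genes called was 0.0091% at 1 d and 0% in the other comparisons.

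Gjd2 encodes connexin 36, the connexin of most neuronal electrical synapses. It was highest in neurons, at 7.24 ± 10.1 CPM on 37 UMIs, but its SD exceeded its mean and no step in its order exceeded the spread. It missed the filter on low counts in neurons, as did Gja5. Before injury Gjd2 was at 4.90 and 19.8 CPM in WT and 5.77 and 29.5 CPM in cKO neurons, and at 14 d at 0 and 1.40 CPM in WT and 3.06 and 3.54 CPM in cKO. At 1 d WT had 0 CPM and cKO 0 and 7.68 CPM, and at 7 d WT had 0 and 2.49 CPM and cKO 28.2 and 2.29 CPM, the 28.2 CPM being 1 UMI. The values at 14 d were all below those before injury, on 0 to 5 UMIs per mouse at 14 d and 1 to 6 before injury. Gja5 in neurons was at 0 and 4.94 CPM in WT and 5.77 and 4.92 CPM in cKO before injury, on 0 to 2 UMIs per mouse, and at 14 d at 10.2 and 11.2 CPM in WT and 14.3 and 16.995 CPM in cKO, on 3 to 24 UMIs. The values of Gja5 at 14 d were all above those before injury, but it was not called without the filter (log2 fold change 1.91, SE 0.73, edgeR adjusted p = 0.182). In the same fit without the filter, Gjd2 was called lower at 14 d, with a log2 fold change of −2.51 (SE 0.65, edgeR adjusted p = 0.0189), where 1.31% of 36556 genes were called. UMIs of other connexins were also counted in this cluster: Gjc3, Gja1, Gjb6, Gjc1 and Gjb1 passed the filter there, and edgeR called 0 of these 5 in the 4 comparisons. Passing a filter on counts does not show that neurons express them, as free RNA was not removed. Summed, the cluster had 7413 CPM of the oligodendrocyte list and 1444 CPM of the astrocyte list beside 8984 CPM of the neuron list. The source of these UMIs was not tested. The only WT mouse at 1 d had 18 neurons with 7570 UMIs, none of a connexin, and the median log2 fold change over all genes was −2.98 at 1 d and 2.01 for cKO against WT, so the counts of 0 in those comparisons say nothing about the connexins. Gjb1 had an unadjusted p under 0.05 at 7 d (log2 fold change −1.80, SE 0.76) and at 14 d (log2 fold change −1.36, SE 0.57, edgeR adjusted p = 0.286), and DESeq2 called 0. The oligodendrocyte marker list in the same cells had a median of 9470 CPM before injury, 6992 CPM at 7 d and 6157 CPM at 14 d, and its part in the Gjb1 values was not tested. Over all 10238 genes, 0% were called at 1 d, 0.00977% at 7 d, 0.791% at 14 d and 0% for cKO against WT.

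Taking all 5 classes, 7 of the 9 connexins could be tested, in 80 tests over 20 comparisons. By edgeR 0 were called, 4 tests (5%) had an unadjusted p under 0.05 and the smallest adjusted p was 0.286. DESeq2 called 0, with 2 tests at an unadjusted p under 0.05. Over all genes, 5.26% of 193968 tests had an unadjusted p under 0.05 and 92 passed. The related genes gave a similar picture. Of the pannexins, which form channels but no gap junctions in most tissues, Panx1 and Panx2 were tested, and 0 of 16 tests passed by either tool, with 0 at an unadjusted p under 0.05. Of the 10 genes for proteins that bind or modify connexins, 9 were tested, and 0 of 148 tests passed by either tool, with 2 at an unadjusted p under 0.05 by edgeR.

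These partners had their own cell types. Tjp1, the scaffold ZO-1 that binds connexin 43, was highest in endothelial cells at 1403 ± 404 CPM. Cav1, the coat protein of caveolae, was highest in endothelial cells at 363 ± 101 CPM. In fibroblasts, Nedd4, a ubiquitin ligase, was at 774 ± 264 CPM, Dbn1, an actin-binding protein, at 118 ± 89.7 CPM and Ccn3, a matricellular protein, at 280 ± 310 CPM. The pannexins were lower, with Panx1 highest in OPC at 33.8 ± 26.5 CPM and Panx2 in Cluster 2 at 93.9 ± 45.2 CPM. Csnk1d, a casein kinase, was highest in Cluster 12, of immune cells, at 106 ± 60.5 CPM.

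With the animal number series as a block (numbers below 10000 against those above), connexins were called in 5 tests, all lower. In that fit the 14 d mice are all of the higher series, and the shift between series comes from the conditions that hold mice of both. At 14 d, Gja1 fell in endothelial cells (log2 fold change −0.99, SE 0.24, edgeR adjusted p = 0.0316), where 2.01% of genes were called, and in oligodendrocytes (−2.09, SE 0.43, edgeR adjusted p = 0.0172), where 1.35% were. In neurons Gja1 fell at 7 d (−1.44, SE 0.43, edgeR adjusted p = 0.0314) and at 14 d (−1.53, SE 0.37, edgeR adjusted p = 0.00177), beside 3.01 and 8.11% of genes. With the replicate number as a block instead, these values were −1.13 (SE 0.48) and −0.69 (SE 0.40), and neither was called. In astrocytes Gjc3 fell at 14 d (−1.26, SE 0.33, edgeR adjusted p = 0.0300), beside 1.74%. The replicate block gave −0.47 (SE 0.43) for Gjc3 there. For Gja1 at 14 d it gave −0.65 (SE 0.25) in endothelial cells and −1.39 (SE 0.44) in oligodendrocytes, and it called none of the 5. Each of these pairs is a connexin in a cell type where another type has far more of it.

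Markers of that other cell type moved with each of them in the fit with the series block. Of the 7 astrocyte markers, Aldoc, Aqp4, Gfap and Slc1a2 were called lower in endothelial cells and in oligodendrocytes at 14 d, with a median log2 fold change of the list of −1.71 and −2.30. In neurons Aldoc and Aqp4 were called lower at 14 d and Aldoc at 7 d, with list medians of −0.84 and −0.64. In astrocytes at 14 d, Mobp of the 6 oligodendrocyte markers was called lower, with a list median of −1.26. Summed, the astrocyte list in oligodendrocytes was at 2583 and 2324 CPM in the uninjured mice of replicate 2, 420 and 1420 CPM in those of replicate 1 and 632 to 1193 CPM at 14 d. The oligodendrocyte list in astrocytes was at 15822 and 19714 CPM in the uninjured mice of replicate 2, 1725 and 2557 CPM in those of replicate 1 and 6134 to 7633 CPM at 14 d. The part of RNA from other cell types in these connexin values was not tested, and Gja1 and Gjb6 in astrocytes and Gjb1 and Gjc3 in oligodendrocytes were not called in the same fit.

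Across the 17 cluster means, the genes most like each connexin by Pearson r of log2(CPM + 10), among 6503 genes, differed between the astrocyte, oligodendrocyte and vessel connexins. For Gja1 they were Amot (r = 0.943), Ppp1r3c, Nkain4, Fjx1 and Wfs1 (r = 0.920), and for Gjb6 they were Myorg (r = 0.937), Aldh1a1, Gpam, Ntsr2 and Lgr6. For Gjb1 they were 4930511M06Rik (r = 0.965), AC122117.2, A330015K06Rik, Abca2 and Carns1. Gjc3 was most like Sox10 (r = 0.948), the transcription factor of the oligodendrocyte and Schwann lineages, followed by Plxnb3, Ugt8a, Fa2h and Pcbp4. The pericyte connexins had other neighbors, Tnks1bp1 (r = 0.931), A4galt, Tbx3, Itga1 and Gata2 for Gjc1, and Perp (r = 0.960), Cd248, Mrvi1, Pla2r1 and Vtn for Gja4. Gjb2 was most like Myoc (r = 0.913), Slc5a6, Scara3, Cpxm2 and Fbln1. Among the connexins themselves, r was 0.839 for Gja1 with Gjb6, 0.745 for Gjb1 with Gjc3 and 0.765 for Gjc1 with Gja4. The points are clusters that share the same libraries, so these values are descriptions.

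Because Gjc3 followed Sox10 most closely and Gjb1 shared its lineage, the bases before their starts were searched for the letters ACAAT and ACAAAG, core motifs of SOX proteins, on both strands. Windows of 250 bases (RefSeq, GRCm38.p6) were on hand for 8 of the 9 connexins, 11 windows in all, of which 5 held a match, while 38.8% of 32851 windows of all genes held either motif (27.7% ACAAT, 16.5% ACAAAG). Gjb1 has 4 listed starts and Gjc3 has 1. Below are the window of Gjc3 (chr5:137963099-137963348, minus strand) and the first and the last of Gjb1 (chrX:101376126-101376375 and chrX:101383482-101383731, plus strand), with matches to either motif on either strand in capitals.
Gjc3: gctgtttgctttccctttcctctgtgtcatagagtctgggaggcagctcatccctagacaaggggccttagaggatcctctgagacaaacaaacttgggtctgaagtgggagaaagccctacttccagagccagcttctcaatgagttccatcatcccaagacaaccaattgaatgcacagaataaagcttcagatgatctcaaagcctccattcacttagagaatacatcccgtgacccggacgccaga
Gjb1, first: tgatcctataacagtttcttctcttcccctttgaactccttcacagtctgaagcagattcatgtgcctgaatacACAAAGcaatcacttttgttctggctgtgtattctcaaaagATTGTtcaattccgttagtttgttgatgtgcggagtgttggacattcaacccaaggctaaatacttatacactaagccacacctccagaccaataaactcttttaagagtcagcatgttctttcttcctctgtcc
Gjb1, last: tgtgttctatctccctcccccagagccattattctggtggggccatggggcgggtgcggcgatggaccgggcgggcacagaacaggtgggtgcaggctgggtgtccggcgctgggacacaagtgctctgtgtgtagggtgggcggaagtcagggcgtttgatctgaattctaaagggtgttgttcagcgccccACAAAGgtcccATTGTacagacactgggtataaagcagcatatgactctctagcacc
The Gjc3 window held no match, and each of these Gjb1 windows held 2, none of them overlapping, while the Gjb1 windows between these, not shown, held 1 and 0. Gja4 and Gja5 had 1 match each. A match is a string of letters and not a binding site, and a window without one says only that the letters are not in it.

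The number of mice limited these comparisons, with 2 per condition and 1 at 1 d in WT, and the 4 mice of low depth carried 1 of the 2 mice of 3 injured conditions and the only WT mouse at 1 d. All 14 d mice were of the higher animal number series, which among uninjured mice only those of replicate 2 shared, so series and time cannot be told apart where 14 d is compared with the uninjured mice of replicate 1.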

How the data were processed

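The count values are UMIs per gene and cell, which the authors made from 10x Genomics 3′ libraries with Cell Ranger on mm10 and deposited as 1 matrix after filtering in Seurat, with R 4.1.2. The percent values, the mitochondrial share of each cell, were deposited with the cluster labels. The highest was 24.992% and the fewest genes of a cell were 201. Summed counts equalled the deposited totals in all 18203 cells. UMIs were summed per mouse and cell class (at least 10 cells) and fitted with edgeR 4.0.16 (quasi-likelihood, TMM, filterByExpr, 1 mean per condition), with Benjamini-Hochberg adjustment over all genes tested and a threshold of 0.05. Times were compared with uninjured over both genotypes, and cKO with WT after injury, in astrocytes (Clusters 2, 5 and 7), oligodendrocytes (4 and 8), endothelial cells (1), pericytes (9) and neurons (3). A condition with 1 mouse was assumed to vary like the others. DESeq2 1.42.0 was an alternative, with R 4.3.3, limma 3.58.1, Python 3.11.15, NumPy 2.4.6, pandas 2.3.3, SciPy 1.17.1 and matplotlib 3.10.9. The fits were tested on simulated data.

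The genes named were the 9 connexins, and of other lists only those above 100 CPM or named for a count. Some genes of these lists are not reported. The members and lists were chosen with earlier results of these data known. Free RNA was not removed, and no doublet caller was run, but cells above the 95th percentile of UMIs were left out as an alternative. Intervals are exact Clopper-Pearson and cover counting error only. The labels give mice of the same replicate number the same batch number, in 16 of 16 mice, which pairs them. Over the 21 pairs of conditions, the median correlation of the deviations of same-numbered mice was 0.0991 in astrocytes, 0.226 in oligodendrocytes, 0.0785 in endothelial cells, 0.0262 in pericytes and 0.0470 in neurons. Gene positions are from GENCODE vM21 and promoter sequences from RefSeq.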

Additional observations from a re-analysis of the deposited data

Results flagged for a closer look

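In 4 of 31 sets of values, the highest value was far from the others by a test of gaps (Dixon's), where chance sets apart about 1 in 20. In astrocytes at 7 d, Gjb6 was at 456 CPM in WT replicate 1, on 29 UMIs, against 330 to 339 CPM in the other 3 mice. Gja4 in endothelial cells at 7 d was at 23.8 CPM in the same mouse, on 4 UMIs, against 3.61 to 4.95 CPM. Both values come from a mouse of low depth. At 14 d, Gja4 in endothelial cells was at 5.83 CPM in cKO replicate 1, on 6 UMIs, against 3.07 to 3.41 CPM. Gjc1 in pericytes at 14 d was at 631 CPM in that mouse, on 153 UMIs, against 369 to 405 CPM.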

How the results depend on the processing

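Of 508 alternatives to the 20 counts of connexins called, 6 differed from 0. With the animal number series as a block, 1 connexin was called at 14 d in astrocytes, 1 in oligodendrocytes, 1 in endothelial cells and 1 in neurons, and 1 at 7 d in neurons. Without the filter on low counts, 1 was called in neurons at 14 d. Leaving out a mouse changed 0 of 290 counts. Leaving out the cells that share a barcode, chosen after seeing the data, changed none. With the replicate number as a block, 0 connexins were called in every comparison, so pairing changed no other call. The cause of these differences was not tested.

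Of 820 alternatives to 32 log2 fold changes, 755 kept sign and side of the threshold and 1 passed it, and 64 had the other sign, in 21 of the 32. With the conditions of the cell names, Gja1 in astrocytes was at −0.15 at 7 d, Gjb1 at −0.20 for cKO against WT, Gjc3 in oligodendrocytes at −0.10, −0.26 and −0.18 at 1 d, 7 d and 14 d and 0.0564 for cKO against WT, Gja4 in endothelial cells at 0.38 at 7 d and Gjc1 in pericytes at −0.10 at 7 d. In Cluster 7 alone Gja1 was at −0.25 at 7 d, and in Cluster 5 alone at 0.0502 for cKO against WT, with Gjb6 at 0.28 and 0.0670 at 7 d and 14 d. Over all alternatives, Gjb6 in astrocytes ran from −0.54 to 0.34 at 7 d and from −0.66 to 0.0792 at 14 d. In Cluster 8 alone Gjb1 was at −0.10 for cKO against WT and Gjc3 at −0.29 and −0.0871 at 1 d and 7 d. With the series block Gjb6 in astrocytes was at 0.0396 at 7 d, Gjc3 in oligodendrocytes at −0.0415 at 1 d and Gjc1 in pericytes at −0.0138 for cKO against WT, and Gja1 in endothelial cells at −0.99 at 14 d. Without the 4 mice of low depth, chosen after seeing the data, with 1 d from 1 cKO mouse against uninjured cKO mice and cKO against WT over 7 d and 14 d, Gjb6 in astrocytes was at 0.0577 and Gja4 in endothelial cells at 0.0901 for cKO against WT, and at 1 d Gjc3 in oligodendrocytes was at −0.34 and Gja1 in endothelial cells at 0.0649. Without the cells of highest UMIs, Gjb1 was at −0.13 at 14 d and −0.16 for cKO against WT, and Gjc1 in pericytes at −0.0223 for cKO against WT. Gjc3 in oligodendrocytes at 1 d was at −0.0524 by DESeq2 and −0.0371 with median-ratio size factors. Without the filter Gja1 in astrocytes was at 0.00593 at 14 d, and with at least 30 cells Gja4 in pericytes was at 0.0736 at 1 d. The cause was not tested.

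Leaving out a mouse at a time, Gja1 in astrocytes ran from −0.17 to 0.31 at 7 d, −0.0812 to 0.0481 at 14 d and −0.27 to 0.0645 for cKO against WT. Gjb6 in astrocytes ran from −0.52 to 0.12 at 1 d, −0.30 to 0.34 at 7 d and −0.56 to 0.0792 at 14 d. Gjb1 in oligodendrocytes ran from −0.13 to 0.25 for cKO against WT, and Gjc3 from −0.22 to 0.35 at 1 d, −0.0421 to 0.53 at 7 d and −0.0801 to 0.49 at 14 d. Gja4 in endothelial cells ran from −1.09 to 2.48 at 7 d and −1.53 to 1.78 at 14 d. In pericytes Gjc1 ran from −0.13 to 0.22 at 1 d and −0.12 to 0.12 for cKO against WT, and Gja4 from −0.21 to 0.0736 at 1 d. Without WT 1 d replicate 1 no WT mouse was left at 1 d, so the 1 d and genotype comparisons over both genotypes and all times gave no value, nor did they in neurons with at least 30 cells. Of 612 alternatives to cluster levels, 10 moved by 1 SD or more. Over all genes, the count called in neurons at 14 d was 830 with the series block and 480 without the filter, and ran from 2 to 118 without a mouse, against 81. Depth limits Gja4, Gja5, Gjb2 and Gjd2 most.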
